A study of Mus musculus with 4 samples.

Results

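Collagen VI and the cell surface proteins that bind it were followed in mouse hearts 28 days after coronary ligation or sham surgery. The genes were taken from the deposited gene table by symbol: the 5 chain genes Col6a1, Col6a2, Col6a3, Col6a5 and Col6a6, and 3 genes for cell surface partners, Antxr1, Antxr2 and Cspg4. All 8 of them were found among the 55401 genes of the table. The MI group (n = 2) had a ligation operation, which stops the blood supply to part of the heart muscle and leaves a scar, and the Sham group (n = 2) had a thoracotomy without ligation. Poly(A) RNA was sequenced from tissue labelled as heart on day 28 in both groups. The series' design text sets infarcted tissue against normal left ventricle, but the region taken is not given per library. Both groups are described alike, with genotype, strain, sex and age not given in the sources used here, and cyanidin, named in the series title, is not analysed here. Nothing states that the replicates were separate animals, so the spread between them may be technical.

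Collagen VI is a collagen of most connective tissues that forms beaded microfilaments close to cells, between the basement membrane and the fibrillar matrix. The α1, α2 and α3 chains assemble inside the cell into a heterotrimer, which joins into larger units before secretion, and the α5 and α6 chains resemble α3 and can take its place. In the heart, fibroblasts are the main source of collagen VI, and loss of the chains in people causes muscle disease. Cells bind collagen VI through integrins, through the proteoglycan NG2, and through the anthrax toxin receptors, which take up the toxin but also bind matrix proteins.

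Total estimated counts were 72857907 and 75979320 in the MI libraries, against 72485370 and 66624106 in the Sham libraries. About 4 counts were assumed for each sequenced fragment, an inference from a pile-up of low counts at 4. Cardiomyocyte markers were abundant in every library, with all 6 markers detected and a summed level of 5420 and 5530 FPKM in MI, against 6250 and 6150 FPKM in Sham. FPKM is a fragment level scaled for gene length and library size, and CPM is a depth-normalised count scaled with trimmed-mean (TMM) factors. The libraries were not alike in other cell types. MI replicate 1 held lung epithelial transcripts, with 6 of 6 markers above a floor of 12 counts and a summed level of 287 FPKM, against 0.17 FPKM in MI replicate 2 and 0.12 and 0.86 FPKM in the Sham libraries. The same library held low levels of skeletal muscle transcripts, with 5 of 5 markers above the floor, against 2 in each other library. Myh1, a skeletal muscle myosin, had 0.59 and 0.01 FPKM in MI and 0 in both Sham libraries. The skeletal muscle sum was 20.3 and 8.46 FPKM in MI and 9.51 and 35.1 FPKM in Sham. Most of it was Myl1, at 16.4 and 8.25 FPKM in MI and 9.22 and 34.5 FPKM in Sham. Sham replicate 2 held adipocyte transcripts (131 FPKM summed over 4 markers with 3 above the floor, against 0.01 and 0.38 FPKM in MI with 0 and 2 above it, and 0.05 FPKM in Sham replicate 1 with 0). Atrial markers summed to 2630 and 1860 FPKM in MI and 152 and 5010 FPKM in Sham, with 4 and 3 of 5 above the floor in MI and 3 and 5 in Sham. Nearly all of the MI sums was Nppa, at 2632 and 1855 FPKM in MI and 151 and 3515 FPKM in Sham. Myl7, the atrial myosin light chain, had 1.2 and 0.41 FPKM in MI and 0.46 and 1128 FPKM in Sham. Myl4, Sln and Bmp10 were likewise high only in Sham replicate 2. Adipoq, the defining adipocyte gene, was listed at 0 in the other 3 libraries, and Sftpc, the defining lung epithelial gene, at 0 in all but MI replicate 1. These libraries are named below beside the values they bear on.

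The 3 main chains and Antxr1 had higher levels in both MI libraries than in both Sham libraries, by 2.69-fold to 3.35-fold. Cspg4 was higher by 1.33-fold, while Col6a5, Col6a6 and Antxr2 overlapped between the groups. No gene passed an adjusted p of 0.05 in edgeR's quasi-likelihood test over all 18475 genes tested (0 called, 0%; smallest adjusted p = 0.185), and 2150 genes had an unadjusted p under 0.05, 1316 higher and 834 lower in MI. On log2(FPKM + 1) in limma the split was 2223 higher and 336 lower. All 8 genes passed the filter on low counts. Of them 5 had an unadjusted p under 0.05 and were higher in MI, where 7.12% of all genes tested were, and 0 were lower, where 4.51% were. The 5 were Col6a1, Col6a2, Col6a3, Antxr1 and Cspg4. For the same 5 genes the lower MI value exceeded the higher Sham value, as it did for 24.9% of all genes tested, and the reverse held for 0 of the 8, against 21.9% of all genes. The median log2 difference of the 8 genes was 1.28, against 0.0031 over all genes tested. DESeq2 called 4 of them higher, Col6a1, Col6a2, Col6a3 and Antxr1, where it called 2.18% of all genes higher, and 0 lower, where it called 1.26%. Leaving out MI replicate 1, the library with lung and skeletal muscle transcripts, leaves 1 library against 2. The log2 differences in edgeR were then 1.29 for Col6a1, 1.16 for Col6a2, 1.47 for Col6a3, 1.11 for Antxr1 and 0.39 for Cspg4. With 2 libraries a group, an exact 2-sided permutation test of any single value cannot go below 0.33, so no gene can pass on its own libraries alone. In tissue RNA, more cells of a type and more RNA per cell cannot be told apart.

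**Figure D1:**
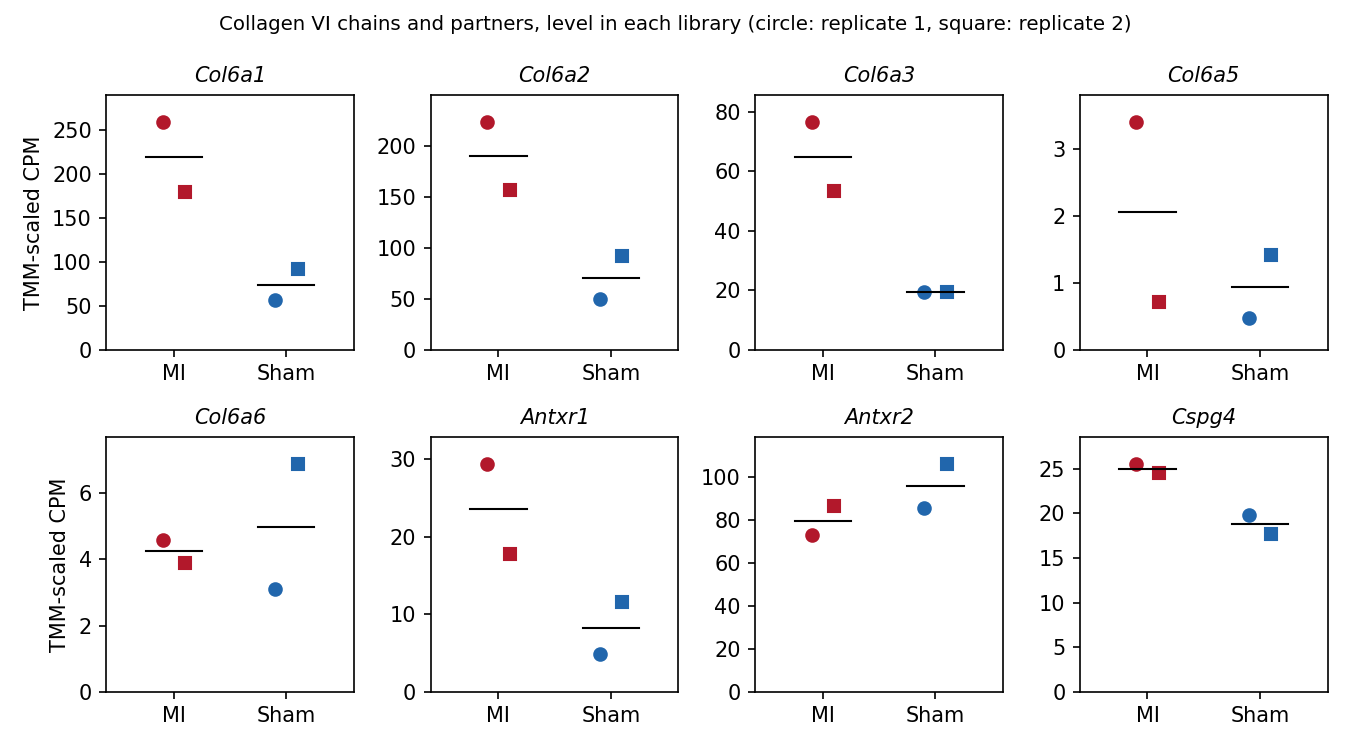
TMM-scaled CPM of the 8 genes (y axis, from 0) in the 2 MI and 2 Sham libraries (x axis). Points are libraries and lines are group means. For Col6a1, Col6a2, Col6a3, Antxr1 and Cspg4 both MI points lie above both Sham points. Col6a5, Col6a6 and Antxr2 overlap.

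Col6a1 and Col6a2 encode the α1 and α2 chains, which are present in every collagen VI molecule. They lie beside each other on chromosome 10 on the minus strand, Col6a2 (ENSMUSG00000020241) from 76595762 to 76623630 and Col6a1 (ENSMUSG00000001119) from 76708792 to 76726168, with 85161 bases between them. The positions are those of the deposited table, and they match GRCm38 (GENCODE M21). The longest coding transcript has 35 exons for Col6a1 and 28 for Col6a2. Col6a3, for the larger α3 chain, is on chromosome 1 (ENSMUSG00000048126, 90765923 to 90843971, minus strand) and has 44 exons.

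The promoters of these 3 chains are shown because their transcripts were higher together in MI, and that of Antxr2 because its transcript was not. Each is a RefSeq window of 300 bases on GRCm38.p6, from 250 bases before to 50 after an annotated start, read 5′ to 3′ on the strand of the gene. Capitals mark every match, on either strand, to the AP-1 site TGANTCA, the GC box GGGCGG, the CCAAT box or the TATA box TATAAA.
Col6a1 promoter, chr10:76725995-76726294, strand -: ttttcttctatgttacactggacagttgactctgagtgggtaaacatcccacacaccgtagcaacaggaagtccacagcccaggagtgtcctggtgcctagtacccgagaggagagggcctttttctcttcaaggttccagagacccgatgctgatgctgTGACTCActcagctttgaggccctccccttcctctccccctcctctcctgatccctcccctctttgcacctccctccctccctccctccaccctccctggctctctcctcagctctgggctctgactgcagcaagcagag
Col6a2 promoter, chr10:76623581-76623880, strand -: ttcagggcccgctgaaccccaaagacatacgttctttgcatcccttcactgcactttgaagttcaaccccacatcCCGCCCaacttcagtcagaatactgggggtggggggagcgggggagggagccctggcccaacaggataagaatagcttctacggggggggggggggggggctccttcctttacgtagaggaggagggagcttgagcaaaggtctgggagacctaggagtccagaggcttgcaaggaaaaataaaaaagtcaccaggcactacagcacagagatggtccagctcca
Col6a3 promoter, chr1:90843922-90844221, strand -: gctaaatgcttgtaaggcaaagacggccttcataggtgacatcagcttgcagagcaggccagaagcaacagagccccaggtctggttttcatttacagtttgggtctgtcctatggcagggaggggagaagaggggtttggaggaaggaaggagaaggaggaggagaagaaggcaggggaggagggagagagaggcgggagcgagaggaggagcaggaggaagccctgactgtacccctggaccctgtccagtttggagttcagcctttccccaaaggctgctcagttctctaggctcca
Antxr2 promoter, chr5:98030968-98031267, strand -: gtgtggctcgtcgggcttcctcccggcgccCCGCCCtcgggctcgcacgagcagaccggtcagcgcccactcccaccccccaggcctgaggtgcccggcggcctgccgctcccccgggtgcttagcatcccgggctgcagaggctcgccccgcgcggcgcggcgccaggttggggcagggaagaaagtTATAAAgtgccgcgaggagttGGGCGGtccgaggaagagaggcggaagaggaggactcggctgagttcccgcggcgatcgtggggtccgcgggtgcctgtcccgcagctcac
The Col6a1 window held an AP-1 site (first base at -90 from the start), as 7.81% of 32851 such windows do. It held no match to the other 3 motifs. The Col6a2 window shown held a GC box at -175 on the opposite strand, as 35.7% of windows hold on either strand. RefSeq lists another Col6a2 start 226 bases downstream of the first, whose window held 3 GC boxes, of which 2 overlap. The Col6a3 window held none of the 4 motifs. Antxr2 held a TATA box at -62, as 13.6% of windows do, and GC boxes at -220 and -41. A CCAAT box, present in 37.4% of windows, was in none of the 4 shown. Also searched, but not marked, was the SMAD element CAGAC. It was in the Col6a2, Col6a3 and Antxr2 windows shown, as in 49.6% of windows. A TEAD site GGAATG and an E-box CACGTG, searched as well, were in none of the 4 shown. CpG pairs numbered 3, 6, 3 and 35 in the windows of Col6a1, Col6a2, Col6a3 and Antxr2, with a median of 7 over all windows. The other Col6a2 window had 16 and that of Cspg4, also higher in MI, had 17. Those of Col6a5 and Col6a6, which overlapped between the groups, had 10 and 14. The CpG numbers of the genes that were higher thus overlapped with those of the others. RefSeq windows were matched for 7 of the 8 genes, all but Antxr1. The letters describe these windows, and no binding was measured.

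Col6a1 had 259 and 180 CPM in the MI libraries, against 56.3 and 91.6 CPM in the Sham libraries. Its log2 difference was 1.57 ± 0.31 (SE; unadjusted p = 0.00438, adjusted p = 0.286 in edgeR). The MI libraries were both above the Sham libraries, and within each group the libraries differed, by 1.44-fold in MI and 1.63-fold in Sham. Col6a2 had 223 and 157 CPM in MI and 49.4 and 91.8 CPM in Sham, a log2 difference of 1.43 ± 0.36 (unadjusted p = 0.0109, adjusted p = 0.327 in edgeR). Its 2 Sham libraries were 1.86-fold apart, with Sham replicate 2 the higher, as for Col6a1. Leaving out MI replicate 1 gave a difference of 1.16 for Col6a2 and 1.29 for Col6a1, and leaving out Sham replicate 2 gave 1.94 for Col6a2 and 1.96 for Col6a1.

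Col6a3 had 76.5 and 53.5 CPM in MI and 19.3 and 19.5 CPM in Sham. Its Sham libraries were nearly equal, at 1.01-fold, unlike those of Col6a1 and Col6a2. The log2 difference, 1.75 ± 0.21, was the largest of the 8 genes, and its unadjusted p (0.000473) ranked 42 among all genes tested, with an adjusted p of 0.188 in edgeR. Only 2.66% of genes tested had a larger log2 difference. Leaving out MI replicate 1 gave 1.47. DESeq2 gave adjusted p-values of 0.000124, 0.00342 and 2.01e-09 for Col6a1, Col6a2 and Col6a3.

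**Figure D2:**
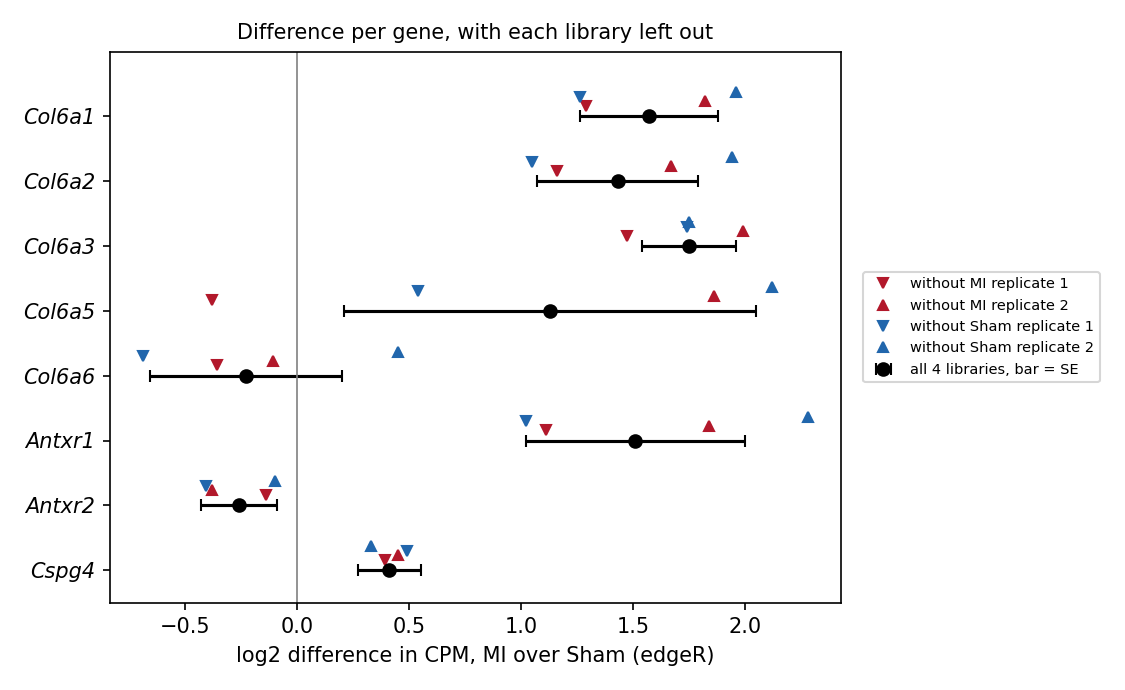
Log2 difference in CPM, MI over Sham (x axis), for the 8 genes (y axis). Black points with bars are the edgeR estimates with SE from all 4 libraries, and triangles the estimates with each library left out. Col6a1, Col6a2, Col6a3, Antxr1 and Cspg4 stay above 0, Antxr2 stays below 0, and Col6a5 and Col6a6 cross 0.

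Levels of the chains can be compared per length. By the deposited FPKM, Col6a1 was the most abundant chain, at 50.1 ± 16.7 FPKM in MI and 14.5 ± 5.91 FPKM in Sham (SD, n = 2 each). Col6a2 averaged 22.8 ± 7.42 FPKM in MI and 7.32 ± 3.60 FPKM in Sham. Col6a3 averaged 5.44 ± 1.78 FPKM in MI and 1.38 ± 0.113 FPKM in Sham. The order of these chains was the same in each of the 4 libraries. Its size depends on the length used. The deposited FPKM divide by the union of all annotated exons, which for Col6a2 takes in the introns kept by a retained-intron transcript (8326 bases, against 4653 in its longest coding transcript). For Col6a1 the union is 4380 bases and the longest coding transcript 4100.

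The Col6a1 level was 2.21 and 2.18 times that of Col6a2 in the MI libraries by deposited FPKM, against 2.17 and 1.9 times in the Sham libraries. Rescaled to the longest coding transcript, the same ratio was 1.32 and 1.3 in MI and 1.29 and 1.13 in Sham, so on this length the α1 and α2 transcripts stood closer to equal. Col6a3 stayed well below both on either length: Col6a1 was 8.34 and 8.28 times its level in MI on coding length, against 7.19 and 11.6 times in Sham. The ratio of Col6a2 to Col6a1 differed between the groups by -0.11 on the log2 scale, and that of Col6a3 to Col6a1 by 0.13 (exact 2-sided permutation p = 0.333, the smallest possible, and 1). The second of these was -0.21 without Sham replicate 2. The MI libraries were close to each other in the Col6a3 to Col6a1 ratio (0.108 and 0.109 by FPKM), while the Sham libraries stood either side of them (0.125 and 0.078).

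**Figure D3:**
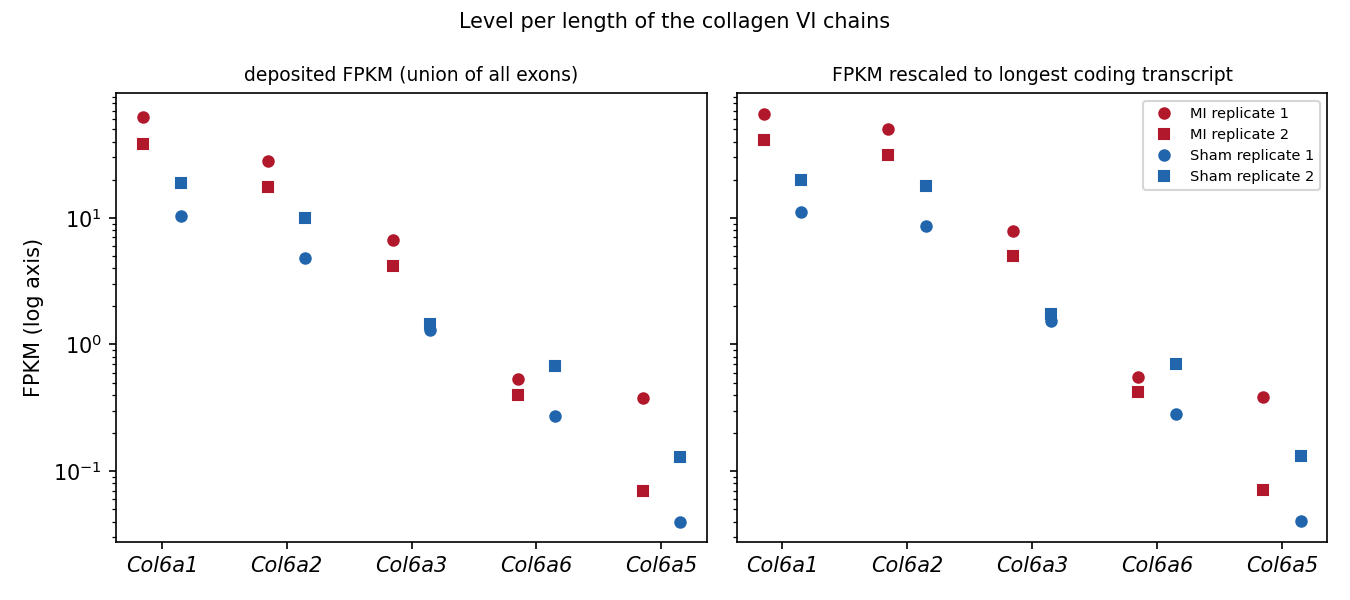
FPKM of the 5 collagen VI chains (y axis, log scale) in each library, MI left of Sham within each gene. The left panel has the deposited FPKM and the right panel the values rescaled to the longest coding transcript. Col6a1 and Col6a2 lie closer together in the right panel, and Col6a5 and Col6a6 lie below Col6a3 in all 4 libraries.

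Col6a5 and Col6a6 encode the long chains that resemble α3. They lie side by side on the minus strand of chromosome 9, Col6a6 (ENSMUSG00000043719) from 105687809 to 105828160 and Col6a5 (ENSMUSG00000091345) from 105856078 to 105960643. The adjacent Col6a4, a further chain gene of the mouse, had a count of 0 in each library. Its level was thus under the floor of 12 counts, or about 3 fragments at the 4 counts assumed for each. The floor covers counting error only. Col6a6 had 4.6 and 3.88 CPM in MI and 3.11 and 6.87 CPM in Sham. Its highest and lowest libraries were both Sham, and the log2 difference was -0.23 ± 0.43 (adjusted p = 0.861 in edgeR). That difference changed sign with the scaling and the libraries used: it was 0.01 on log2(FPKM + 1) and 0.45 without Sham replicate 2.

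Col6a5 had 284 and 56 counts in the MI libraries and 30 and 92 counts in the Sham libraries, or 3.40 and 0.722 CPM in MI and 0.472 and 1.42 CPM in Sham. Its libraries were 4.71-fold apart within MI and 3.0-fold apart within Sham. The log2 difference of 1.13 ± 0.92 (adjusted p = 0.675 in edgeR) became -0.38 without MI replicate 1. The 2 highest libraries were MI replicate 1, with lung epithelial and skeletal muscle transcripts, and Sham replicate 2, with adipocyte and atrial transcripts. The part of those tissues in the Col6a5 level was not tested. Of the summed FPKM of Col6a3, Col6a5 and Col6a6, Col6a3 made up 88.0% and 89.9% in MI, against 80.7% and 64.6% in Sham. The ratio of Col6a6 to Col6a3 was 0.0791 and 0.0957 in MI and 0.208 and 0.459 in Sham, so the groups did not overlap, with a log2 difference of -1.83 (exact 2-sided permutation p = 0.333, the smallest possible).

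Antxr1 and Antxr2 encode transmembrane receptors with an extracellular von Willebrand A domain, and both are entry receptors for anthrax toxin. Antxr1, also called TEM8, was first known from tumour endothelium and binds collagens, and Antxr2, also called CMG2, mediates uptake of collagen VI. Antxr1 (ENSMUSG00000033420, chromosome 6, 87133853 to 87335821, minus strand) had 29.3 and 17.7 CPM in MI and 4.86 and 11.6 CPM in Sham. Both MI libraries were above both Sham libraries, but the Sham libraries were 2.39-fold apart. The log2 difference was 1.51 ± 0.49 (unadjusted p = 0.0285, adjusted p = 0.373 in edgeR; adjusted p = 0.0452 in DESeq2). Leaving out MI replicate 1 gave 1.11, and leaving out Sham replicate 2 gave 2.28.

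Antxr2 (ENSMUSG00000029338, chromosome 5, 97882783 to 98031043, minus strand) had 72.9 and 86.7 CPM in MI and 85.8 and 106 CPM in Sham. The groups overlapped, with MI replicate 2 just above Sham replicate 1. The log2 difference was -0.26 ± 0.17 (unadjusted p = 0.183, adjusted p = 0.588 in edgeR). Antxr2 was the more abundant receptor per length in each library. By deposited FPKM its level was 3.56 and 6.99 times that of Antxr1 in MI, against 25.3 and 13.1 times in Sham, and on coding length 2.31 and 4.53 times in MI, against 16.4 and 8.47 times in Sham. The log2 ratio was lower in both MI libraries than in both Sham libraries by a mean of -1.87 (exact 2-sided permutation p = 0.333, the smallest possible). On log2(FPKM + 1) the difference was -1.03.

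Cspg4 encodes NG2, a transmembrane proteoglycan that binds collagen VI and marks pericytes and smooth muscle cells, the mural cells of vessels. Cspg4 (ENSMUSG00000032911, chromosome 9, 56865033 to 56899870, plus strand) had 25.5 and 24.5 CPM in MI and 19.8 and 17.7 CPM in Sham. Its libraries agreed closely within each group and did not overlap, and the log2 difference was small, at 0.41 ± 0.14 (unadjusted p = 0.0352, adjusted p = 0.397 in edgeR). Of 7 mural cell markers 3 were higher in MI at an unadjusted p under 0.05 in edgeR and 0 lower. Over all genes tested 7.12% were higher and 4.51% lower at that p. Abcc9 was lower in both MI libraries without passing (log2 difference -0.2), and the median log2 difference of the 7 was 0.43. Pdgfrb, the receptor that recruits pericytes, had 19.5 and 16.9 FPKM in MI and 11.2 and 8.71 FPKM in Sham, and Rgs5, a pericyte signalling regulator, 130 and 117 FPKM in MI and 84.4 and 71.7 FPKM in Sham. The ratio of Cspg4 to the geometric mean of these 7 markers was 0.118 and 0.115 in MI and 0.115 and 0.114 in Sham. On the log2 scale the groups differed in this ratio by 0.02 (exact 2-sided permutation p = 0.333, the smallest possible), against 0.41 for Cspg4 itself. Markers of some other cell types had differences of like size: the median log2 difference was 0.49 over 5 endothelial markers, 0.49 over 4 macrophage markers and 0.46 over 6 fibroblast markers. Others did not, with a median of -0.34 over 6 cardiomyocyte markers and 0.14 over 3 tested Schwann cell markers. Medians were -0.17 over 3 red blood cell markers and -0.62 over 4 mesothelial markers. Of the endothelial markers 3 were higher in MI at an unadjusted p under 0.05, and of the macrophage markers 0. Endothelial markers summed to 169 and 133 FPKM in MI and 88.6 and 101 FPKM in Sham, and macrophage markers to 92.6 and 53.2 FPKM in MI and 42.2 and 51.2 FPKM in Sham. The part of these cells in the Cspg4 level was not tested. Of 4 Schwann cell markers 3 were above the floor in each library, with a summed level of 2.04 and 1.36 FPKM in MI and 1.20 and 2.28 FPKM in Sham.

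Matrix proteins that bind collagen VI were set beside it. Of 14 such genes 12 were tested, with a median log2 difference of 1.13. In edgeR 8 were higher in MI at an unadjusted p under 0.05 and 0 lower, against 7.12% and 4.51% of all genes tested. DESeq2 called 4 of them higher and 0 lower, against 2.18% and 1.26% of all genes. This list and those of the next paragraphs were chosen with earlier results of these data known. Bgn, which encodes biglycan, a small proteoglycan that helps organise collagen VI filaments, had 153 and 79.7 FPKM in MI and 26.6 and 47.9 FPKM in Sham. Dcn, for its relative decorin, had 92.7 and 92.9 FPKM in MI and 44.4 and 58.0 FPKM in Sham, a log2 difference of 0.65 ± 0.16 in CPM. Fn1, for fibronectin, had 30.4 and 10.9 FPKM in MI and 3.15 and 4.75 FPKM in Sham (log2 difference 2.14 ± 0.48). Col4a1, a basement membrane collagen chain, had 92.3 and 95.6 FPKM in MI and 67.4 and 60.1 FPKM in Sham, with a log2 difference of 0.34 ± 0.18 and an unadjusted p of 0.118 in edgeR. The 2 genes of the list not tested were Matn1 and Matn3, cartilage matrilins near 0 in these libraries, named after their values were seen.

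Among 5 collagen-binding integrin genes the median log2 difference was 0.42. In edgeR 3 were higher in MI at an unadjusted p under 0.05 and 0 lower, against 7.12% and 4.51% of all genes tested. DESeq2 called 2 higher and 0 lower, against 2.18% and 1.26% of all genes. Itga11, the α11 chain of a fibroblast collagen receptor, had 2.39 and 1.3 FPKM in MI and 0.14 and 0.27 FPKM in Sham, a log2 difference of 2.91 ± 0.42 in CPM. Itga10 had 0.56 and 0.63 FPKM in MI and 0.17 and 0.20 FPKM in Sham (log2 difference 1.5 ± 0.33). Itga1 had a log2 difference of 0.42 ± 0.14. Itgb1, the β1 chain shared by all these receptors, was far more abundant and overlapped between the groups, at 82.0 and 54.7 FPKM in MI and 59.5 and 47.2 FPKM in Sham.

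Collagen VI assembly needs the collagen chaperone and the hydroxylases, and the secreted chains are cut by proteases. The median log2 difference of 12 genes for these steps was 0.58. In edgeR 6 were higher in MI at an unadjusted p under 0.05 and 0 lower, against 7.12% and 4.51% of all genes tested. DESeq2 called 3 higher and 0 lower, against 2.18% and 1.26% of all genes. Mmp2, a gelatinase, had 52.5 and 36.1 FPKM in MI and 10.1 and 14.7 FPKM in Sham, a log2 difference of 1.61 ± 0.21 in CPM. P4ha1, a catalytic subunit of prolyl hydroxylase, had 11.7 and 9.78 FPKM in MI and 5.16 and 4.92 FPKM in Sham. Its partner subunit P4hb had 90.1 and 71.8 FPKM in MI and 66.9 and 66.1 FPKM in Sham, and its log2 difference in CPM was 0.06 ± 0.14. Serpinh1, the collagen chaperone HSP47, had 107 and 77.8 FPKM in MI and 51.1 and 18.1 FPKM in Sham, with Sham libraries far apart and a log2 difference of 1.15 ± 0.54.

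**Figure D4:**
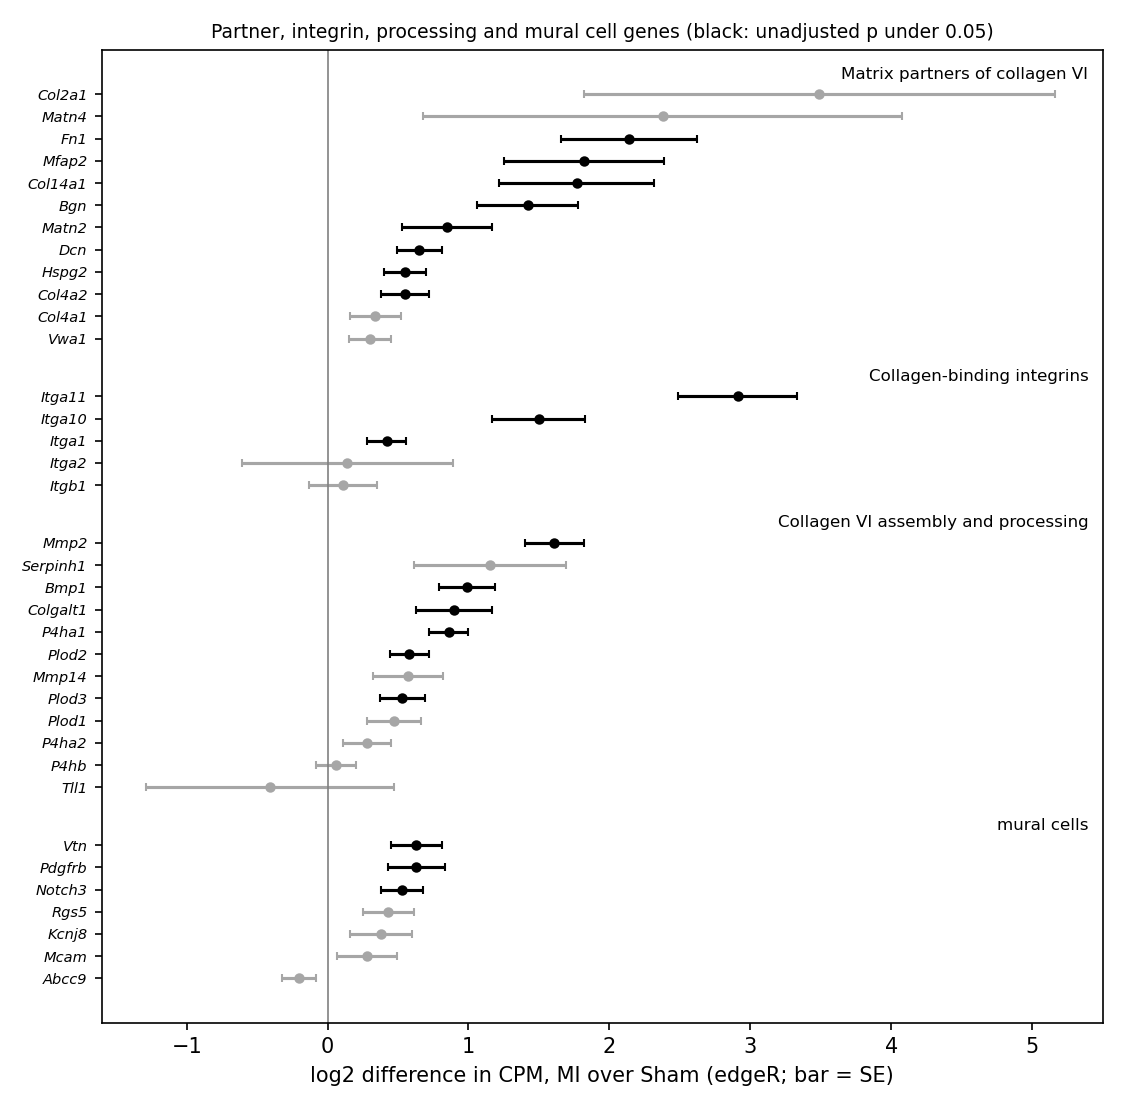
Log2 difference in CPM, MI over Sham (x axis), with SE, for the tested genes that bind collagen VI, for collagen-binding integrins, for assembly and processing, and for mural cells (y axis). Black points have an unadjusted p under 0.05 in edgeR. All 12 matrix partners lie above 0, while Tll1 and Abcc9 lie below 0. The largest estimates among the partners, those of Col2a1 and Matn4, rest on few counts and are highest in MI replicate 1. Col2a1 had 104 and 14 counts in MI and 0 and 8 in Sham. Matn4 had 228 and 45 counts in MI and 0 and 41 in Sham.

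Collagen VI was also set against the fibrillar collagens of the same libraries. The summed FPKM of Col6a1, Col6a2 and Col6a3 was 96.7 and 60.1 in MI and 16.4 and 30.0 in Sham. That of Col1a1, Col1a2 and Col3a1, the chains of collagens I and III, was 281 and 121 in MI and 26.4 and 41.4 in Sham. By deposited FPKM collagen VI thus came to 34.4% and 49.8% of the fibrillar sum in MI, against 62.2% and 72.5% in Sham. The share depends on the length used. Rescaled to the longest coding transcript, the ratio was 0.266 and 0.379 in MI and 0.482 and 0.565 in Sham. The groups did not overlap on either length. The log2 difference in the ratio was -0.70 by deposited FPKM (exact 2-sided permutation p = 0.333, the smallest possible) and -0.72 on coding length. By deposited FPKM it was -0.43 without MI replicate 1. The fibrillar genes had log2 differences of 2.28 to 2.35, larger than those of the collagen VI chains. Fibroblast markers, which mark the main source of both collagens, had a summed level of 464 and 419 FPKM in MI and 227 and 370 FPKM in Sham over 6 genes, all detected in each library. Of the 6, 2 were higher at an unadjusted p under 0.05 in edgeR, Lum and Col1a1, and 0 lower. Over all genes tested 7.12% were higher and 4.51% lower at that p. Col1a1 is also part of the fibrillar sum above. The median log2 difference of the 6 was 0.46. Gsn had the largest part of the marker sum, at 247 and 289 FPKM in MI and 176 and 284 FPKM in Sham. Its log2 difference in CPM was 0.02.

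The genes whose levels over the 4 libraries ran closest to the mean of Col6a1, Col6a2 and Col6a3 were sought among 7717 genes with a mean of at least 10 CPM. The measure was the distance between log2 levels, each centred on its own mean. In order of closeness they were Tgfb3, a transforming growth factor, at 0.073, Mmp2 at 0.145, Islr, a secreted leucine-rich protein of stromal cells, at 0.147, Fstl1, a secreted follistatin-like protein, at 0.231, and Adamts2, a procollagen protease, at 0.240. By comparison, the 3 chains themselves lay 0.116, 0.276 and 0.385 from their mean. Tgfb3 had 42.5 and 31.6 CPM in MI and 9.94 and 14.8 CPM in Sham. Nearest to Cspg4 were Plcg1, a phospholipase, at 0.023, Entpd1, an ectonucleotidase of vessels, at 0.028, and Anapc2, a subunit of a cell cycle ubiquitin ligase, at 0.030. With 4 libraries many genes share such a profile, and the likeness is a description.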

How the data were processed

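The deposited table gives 1 estimated count and 1 FPKM per gene and library, per the file headers. The counts, which are the authors' estimated counts, are all whole, and the authors scaled FPKM for length and library size. Low counts pile up at 4: 1174 and 1148 genes had a count of 4 in MI and 1158 and 1167 in Sham, against 331 and 290, and 284 and 311, with a count of 3. The deposited FPKM equal the count over the union of a gene's exons in GENCODE M21 (GRCm38), up to a constant, within 5% for 99.1% of 15837 gene and library pairs. The submitters' processing notes list UMI-tools, StringTie 1.3.4d, HISAT2 2.0.4 and cutadapt 1.9, with no role. Genome build and strand use in counting: not given in the sources used here. Genes overlapping the 8 had at most 12 counts.

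Groups came from the sample titles. Counts were filtered (filterByExpr, min.count 10, min.total.count 15), TMM-scaled and tested with edgeR 4.0.16 (R 4.3.3; quasi-likelihood, group as the only term, 2-sided, Benjamini-Hochberg over all genes tested). The biological coefficient of variation was 0.368. DESeq2 1.42.0 and limma 3.58.1 on log2(FPKM + 1) were alternatives, with pseudocount 0.1, other scaling and filters, counts divided by 4, a replicate block and each library left out. DESeq2 left 2866 of the genes without an adjusted p, which are not counted as called. The genes and lists were chosen with earlier results of these data known. Named from each list were the 2 genes of highest mean FPKM and the 2 of smallest p. The cell type markers named, Matn1, Matn3, Matn4, Col2a1 and Tll1 were chosen after their values were seen. The SE of a log2 difference includes the spread between libraries, while the floor of 12 counts covers counting error only. Likeness used log2(CPM + 0.5).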

Additional observations from a re-analysis of the deposited data

How the results depend on the processing

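The log2 differences of Col6a1, Col6a2, Col6a3, Antxr1 and Cspg4 kept their direction under every alternative run, from 1.26 to 1.96, 1.05 to 1.94, 1.41 to 1.99, 0.99 to 2.28 and 0.30 to 0.60. Their calls depend on the tool. DESeq2 called 635 genes, against 0 in edgeR, with Col6a1 at 1.55, Col6a2 at 1.41, Col6a3 at 1.73 and Antxr1 at 1.5. Without DESeq2, adjusted p-values of the 8 genes ranged from 0.12 to 0.992; the cause was not tested. Genes called ranged from 0 to 14 and genes at an unadjusted p under 0.05 from 810 to 3126 with a library left out, and the 8 genes at that p from 2 (without MI replicate 1) to 6. Col6a5 ranged from -0.38 to 2.12 and Col6a6 from -0.69 to 0.45 with a library left out. Col6a6 was 0.01 on log2(FPKM + 1), 0.07 on log2(FPKM + 0.1) and 0.32 between MI replicate 2 and Sham replicate 1 alone, a comparison with no test added after the data were seen, which gave 0.02 for Antxr2. The median log2 difference of all genes was 0.095 to 0.197 on the FPKM scale, against 0.003 in edgeR. The MI minus Sham difference in the log2 ratio of Col6a3 to Col6a1 was -0.32 on log2(FPKM + 1). It ranged from -0.21 to 0.48 with a library left out. For the ratio of Antxr2 to Antxr1 this group difference was -1.03 on log2(FPKM + 1). For the ratio of Cspg4 to mural cell genes it was -0.16 on log2(FPKM + 1). In edgeR with the replicate block, 0 genes were called, 1554 had an unadjusted p under 0.05, and 4 of the 8 genes did, the exception among the 5 being Cspg4, with a difference of 0.41. Same-numbered libraries did not deviate together (correlation across genes -0.0561). With so few libraries a group, this cannot tell whether the numbers pair them. Other scalings, no filter and counts divided by 4 changed no call among the 8. With a mean FPKM of at least 1, Col6a5 and Col6a6 were not tested. Depth limits Col6a5, which rests on 30 to 284 counts per library, with about 4 counts assumed per fragment.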
